A study of Homo sapiens with 3 samples.

Results

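Of the 13459 genomic regions under 1000 bp that carried an anti-IRF3 ChIP-seq peak in all 3 libraries of BT549 cells, 473 (3.51%, Wilson 95% interval 3.22 to 3.84) lay at an end of a long non-coding RNA (lncRNA) gene and away from every protein-coding gene. Overlapping or touching peaks were joined across the 3 lists. A merged region on chromosomes 1 to 22 or X was kept when its midpoint was within 1 kb of an lncRNA gene end, more than 1 kb from any protein-coding gene end and outside protein-coding gene spans. The 473 regions belonged to 437 of the 17904 lncRNA genes in the RefSeq annotation, and 36 of these genes had more than 1 region. All merged regions numbered 21208, and 14367 were shared by the 3 lists on these chromosomes. Since presence in all lists chose the regions, that presence is no finding, and score percentiles are given as a description. Wilson intervals cover counting error only.

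BT549 is a human breast cancer line of the basal-like type. Its cells had taken up lentiCRISPR v2 virus, so that they stably expressed Cas9 with a control guide RNA, Smad3 gRNA #1 or Smad3 gRNA #2, and all 3 groups received polyI:C, a synthetic mimic of viral double-stranded RNA, by transfection. Each group had 1 library, with lists of 18028 (control), 16811 (guide 1) and 19609 (guide 2) peaks, so no comparison between groups has a replicate check. The cell name in the titles is BT549-caSmad3 with either Smad3 guide but BT549 in the control, while every description has BT549, and which is right was not settled. Cells without polyI:C, a library without antibody and input DNA were not analysed here. The lists give no read counts, so the depth behind each peak is unknown.

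IRF3 is a transcription factor that moves to the nucleus after a cell senses viral nucleic acid and binds interferon-stimulated response elements near interferon and antiviral genes. SMAD3 is a transcription factor activated by TGF-beta receptors. An lncRNA is a long transcript with no known protein product. Many lncRNA genes start from promoters of the same kind as those of protein-coding genes, some serve mainly as hosts from which small nucleolar RNAs (snoRNAs) or microRNAs are cut, and some act on the gene next to them.

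Promoter sequences of a few high regions and of immune or TGF-beta linked genes are printed first, to show the motifs that were counted. Each is the RefSeq window from 250 bases before to 50 bases after the annotated start, written 5′ to 3′ on the strand of the gene in build GRCh38.p14. NORAD (chr20:36050911-36051210, minus strand) stands for the highest regions, and its capitals mark an E-box (CACGTG) and an ETS motif (CCGGAAG or its complement). LINC01409 (chr1:778548-778847, plus), LINC03006 (chr7:65770761-65771060, minus) and MEG3 (chr14:100825882-100826181, plus) held a cAMP response element (CRE, TGACGTCA), capitalised with the CCAAT box and, in MEG3, a TATA box (TATAAA). CYTOR (chr2:87455177-87455476, plus) has capitals at 2 AP-1 motifs (TGANTCA). MIR155HG (chr21:25561895-25562194, plus), CARINH (chr5:132410679-132410978, plus) and MIR222HG (chrX:45770218-45770517, minus) are shown for the interferon response motif (GAAA, any 2 bases, GAAA, or its complement), with an AP-1 motif and a TATA box also capitalised in MIR155HG.
NORAD: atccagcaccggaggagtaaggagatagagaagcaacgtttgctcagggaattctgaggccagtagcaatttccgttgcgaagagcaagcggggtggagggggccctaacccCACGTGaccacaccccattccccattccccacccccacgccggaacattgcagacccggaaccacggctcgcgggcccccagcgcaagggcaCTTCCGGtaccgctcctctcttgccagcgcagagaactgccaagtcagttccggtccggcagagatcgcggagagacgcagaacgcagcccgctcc
LINC01409: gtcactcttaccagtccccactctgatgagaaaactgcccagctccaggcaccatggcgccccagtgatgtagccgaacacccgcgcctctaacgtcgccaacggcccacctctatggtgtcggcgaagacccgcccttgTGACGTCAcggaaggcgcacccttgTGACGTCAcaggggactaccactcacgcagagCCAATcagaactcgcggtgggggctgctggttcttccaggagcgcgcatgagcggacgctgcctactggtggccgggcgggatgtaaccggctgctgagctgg
LINC03006: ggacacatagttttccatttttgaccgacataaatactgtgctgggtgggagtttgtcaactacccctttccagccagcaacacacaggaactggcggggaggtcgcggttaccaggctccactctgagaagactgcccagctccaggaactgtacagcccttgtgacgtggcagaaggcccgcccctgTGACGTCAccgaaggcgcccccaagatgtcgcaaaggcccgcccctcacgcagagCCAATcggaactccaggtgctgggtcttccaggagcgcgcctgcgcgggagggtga
MEG3: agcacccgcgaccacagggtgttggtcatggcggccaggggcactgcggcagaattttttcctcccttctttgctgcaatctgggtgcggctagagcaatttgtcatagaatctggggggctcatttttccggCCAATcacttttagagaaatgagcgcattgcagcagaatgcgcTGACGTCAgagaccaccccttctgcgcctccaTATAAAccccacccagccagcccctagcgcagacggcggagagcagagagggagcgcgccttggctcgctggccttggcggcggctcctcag
CYTOR: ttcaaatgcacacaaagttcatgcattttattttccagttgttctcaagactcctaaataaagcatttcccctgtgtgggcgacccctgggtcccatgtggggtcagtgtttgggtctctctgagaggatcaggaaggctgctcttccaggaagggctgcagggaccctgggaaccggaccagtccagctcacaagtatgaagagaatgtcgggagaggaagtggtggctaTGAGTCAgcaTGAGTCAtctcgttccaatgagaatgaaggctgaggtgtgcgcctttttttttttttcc
MIR155HG: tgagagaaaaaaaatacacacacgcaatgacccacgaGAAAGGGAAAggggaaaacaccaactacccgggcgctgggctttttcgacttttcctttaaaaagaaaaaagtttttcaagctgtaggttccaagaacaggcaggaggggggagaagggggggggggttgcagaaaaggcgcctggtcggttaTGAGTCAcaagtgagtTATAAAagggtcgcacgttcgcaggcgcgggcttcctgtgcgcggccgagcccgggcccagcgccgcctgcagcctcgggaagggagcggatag
CARINH: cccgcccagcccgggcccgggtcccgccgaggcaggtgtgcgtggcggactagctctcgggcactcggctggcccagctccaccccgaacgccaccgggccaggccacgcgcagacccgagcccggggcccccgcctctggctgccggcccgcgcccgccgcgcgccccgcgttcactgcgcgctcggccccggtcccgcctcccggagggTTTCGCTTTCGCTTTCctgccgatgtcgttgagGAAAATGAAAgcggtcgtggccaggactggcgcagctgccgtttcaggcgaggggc
MIR222HG: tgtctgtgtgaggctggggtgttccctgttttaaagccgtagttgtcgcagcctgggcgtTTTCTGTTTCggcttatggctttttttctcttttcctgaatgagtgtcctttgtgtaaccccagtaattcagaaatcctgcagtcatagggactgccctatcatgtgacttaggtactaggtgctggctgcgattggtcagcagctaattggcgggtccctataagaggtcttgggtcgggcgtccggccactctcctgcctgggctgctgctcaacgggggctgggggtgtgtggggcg
The 2 CRE copies of LINC01409 began 110 and 85 bases before the start, that of LINC03006 61 bases before it and that of MEG3 74 bases before it. All of these, and the marked motifs of NORAD and CYTOR, lay inside the highest-scoring peak of every library. In CARINH 2 of the 3 interferon response matches overlapped each other, and the match closest to the start, 6 bases before it, lay inside the peaks of all 3 libraries. The match of MIR155HG began 213 bases before the start and lay outside the merged region, 231 bp from its midpoint, whereas its AP-1 match, 60 bases before the start, lay inside all 3 peaks. A match is a description and not a binding site.

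Most regions lay at the beginning of their lncRNA gene. The strand was known for 342 regions through the promoter table, and 274 of them (80.1%, 75.6 to 84.0) were closest to the gene start while 68 were closest to the other end. At starts the median distance from midpoint to start was 114 bp, and 152 midpoints were upstream against 122 downstream or at the start, with a median position 21.5 bp upstream. At other ends the median distance was 495.5 bp. For 131 regions the table gives no strand. Over all 473 regions the median distance was 180 bp, with 174 within 100 bp, 272 within 250 bp and 368 within 500 bp. Just inside the limit were LOC124904933 at 995 bp and LINC01554 at 993 bp, and just outside it were LOC100505498 at 1010 bp and LOC112267899 at 1012 bp. The annotation used here gives gene spans only, so exons and introns were not told apart.

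**Figure D1:**
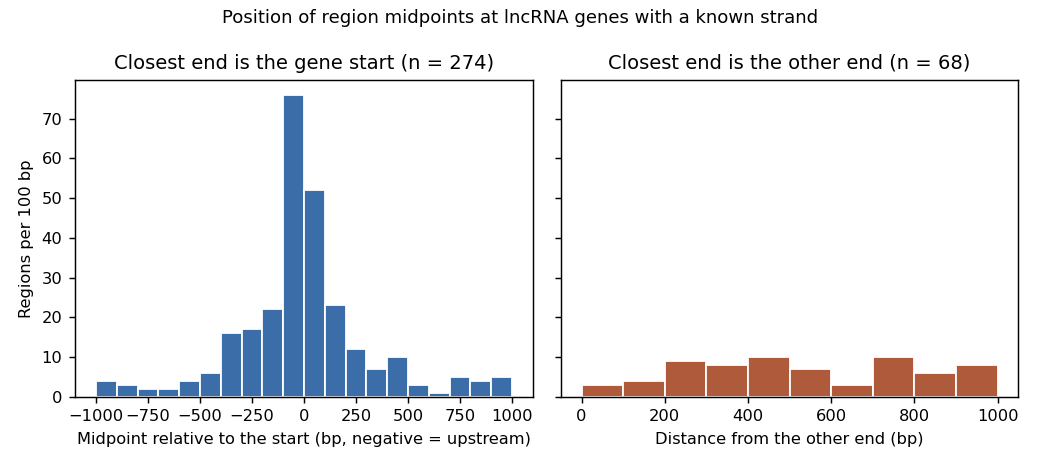
Position of region midpoints at lncRNA genes with a known strand, in regions per 100 bp. Left, distance in bp from the annotated start for the 274 regions closest to a start, negative upstream; right, distance in bp from the other end for the other 68. Regions at starts pile up within about 100 bp of the start, and those at other ends spread over the whole kilobase.

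The regions were compact, with a median width of 523 bp (246 to 991), and 458, 459 and 471 of the 473 held a single peak in control, guide 1 and guide 2. The widest, 991 bp, was at MIR222HG, and 37 further shared regions of 1000 bp or more met every other condition. By name, 231 regions were at genes with a LOC identifier, 116 at LINC genes, 33 at antisense genes, 13 at microRNA hosts, 11 at SNHG genes, 7 at divergent transcripts and 1 at an overlapping transcript, and 61 had another name. Genes with a LOC identifier, which are mostly predicted models, had a region less often, 209 of 12046 (1.74%), than the rest, 228 of 5858 (3.89%).

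The score percentile of a region is the share of peaks in the same list that scored lower than its highest peak. The deposited score has no stated scale, so it was used only to rank peaks within a list. In control, guide 1 and guide 2 the 473 regions had median percentiles of 52.2, 49.0 and 57.1, against 56.8, 53.6 and 61.1 over all 13459 shared regions. Regions within 1 kb of a protein-coding gene end stood higher, with medians of 69.2, 63.2 and 68.0 (7137 regions). Regions outside protein-coding genes and away from lncRNA ends stood lower, with medians of 38.0, 44.0 and 53.2 (2995 regions). Regions inside protein-coding genes, over 1 kb from their ends, also stood lower, with medians of 42.8, 44.0 and 52.7 (2854 regions). In each library the lncRNA set therefore lay below regions at protein-coding ends and above the other 2 locations. Its quartiles in control ran from 29.9 to 75.9, so that the locations overlapped widely. The top 10% of the lists held 44, 40 and 48 of the 473 regions (9.30%, 8.46% and 10.1%). Of all 13459 shared regions 10.2%, 9.55% and 11.3% were there, so the set was near the common share.

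**Figure D2:**
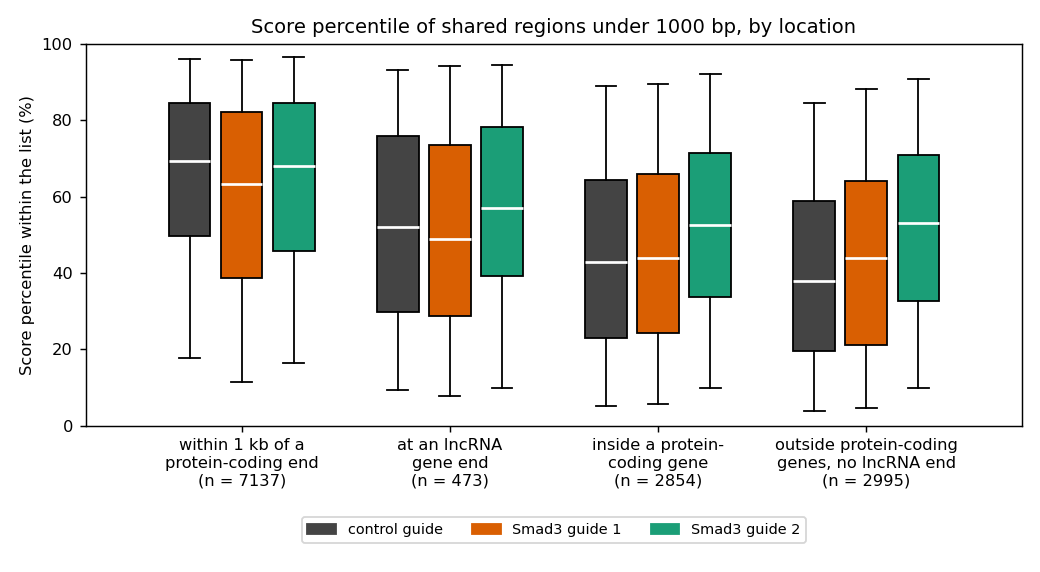
Score percentile within the list (%) for the 13459 shared regions under 1000 bp, by location and library. Boxes show quartiles with a white median line, and whiskers run from the 5th to the 95th percentile; in every library the lncRNA set lies below regions at protein-coding ends and above regions away from both.

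Regions at lncRNA starts stood above those at other ends. For the 274 at starts the medians were 57.8, 53.5 and 60.4 (control, guide 1, guide 2). They were 30.7, 38.7 and 48.1 for the 68 at other ends. Regions at other ends thus had medians below those of regions away from both kinds of gene end in every library. Among the 274 at starts 32, 29 and 29 (11.7%, 10.6% and 10.6%) were in the top 10% of their list. Among the 68 at other ends 2, 2 and 3 (2.94%, 2.94% and 4.41%) were. The shares of all shared regions were 10.2%, 9.55% and 11.3%.

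Genes that host snoRNAs gave the highest group of regions. SNHG genes carry in their introns the snoRNAs that guide chemical modification of ribosomal RNA. Their 11 regions had median percentiles of 93.2, 95.2 and 97.0 in control, guide 1 and guide 2. SNHG29 (chr17:16438863-16439399) stood at 99.1, 99.0 and 98.9, and a second region of the gene stood at 85.0, 86.3 and 91.2. SNHG5 (chr6:85678419-85679316) was at 98.8, 99.0 and 99.2. Both were high in every library. SNHG11 (chr20:38446511-38446962) had percentiles of 99.0, 97.9 and 98.9, and SNHG32 (chr6:31834456-31835202) of 98.5, 98.6 and 98.6. SNHG8 reached 93.2, 96.0 and 97.2, and SNHG15 93.6, 95.2 and 97.0. The lowest of the group was SNHG26 at 78.7, 57.6 and 63.9. No region of the set overlapped an annotated snoRNA gene (0 of 473, which allows a share of up to 0.806%). None of these peaks thus lay on an annotated snoRNA. Such overlap was rare elsewhere too, at 6 of 7137 shared regions at protein-coding ends (0.0841%) and at none of the others.

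NORAD, an abundant cytoplasmic lncRNA that binds PUMILIO proteins and is induced by DNA damage, had the highest region at the start of a gene in control. Its region, chr20:36050666-36051301, lay 23 bp from the start and stood at 99.3, 99.1 and 99.0 in control, guide 1 and guide 2. LINC01409 (chr1:778377-779080) was at 95.7, 97.8 and 98.4 and LINC03006 (chr7:65770486-65771163) at 95.9, 96.5 and 95.2. STAG3L5P-PVRIG2P-PILRB, a readthrough locus, was at 98.6, 96.3 and 98.0 and its region also overlapped the pseudogenes PMS2P1 and STAG3L5P. These were among the 20 highest regions, whose lowest percentiles were 93.2, 94.0 and 94.5.

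Some of the highest regions lay on other small RNA genes. The single highest region, chr1:146376647-146377455, was 237 bp from the other end of LOC112268274 and overlapped LOC124904613, annotated as a small nuclear RNA (snRNA) gene. Its percentiles were 99.6, 99.5 and 99.5, while a second region of the gene, without an snRNA gene, stood at 41.3, 8.93 and 9.98. LINC01719 at 97.9, 94.2 and 97.9 overlapped the U1 variant gene RNVU1-6, and LINC00324 at 93.5, 92.7 and 93.4 overlapped the transfer RNA gene TRP-CGG1-3. In all, 6 regions (1.27%, 0.583 to 2.74) overlapped an snRNA gene and 4 (0.846%, 0.329 to 2.15) a transfer RNA gene. Among the 2995 shared regions outside protein-coding genes and away from lncRNA ends the counts were 16 (0.534%) and 9 (0.301%), and among the 7137 regions at protein-coding ends they were 2 and 4. These 10 regions had median percentiles of 89.8, 88.2 and 92.2, and 2 of them were among the 20 highest. For these the label of an lncRNA gene end and the label of a small RNA gene cannot be told apart.

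**Figure D3:**
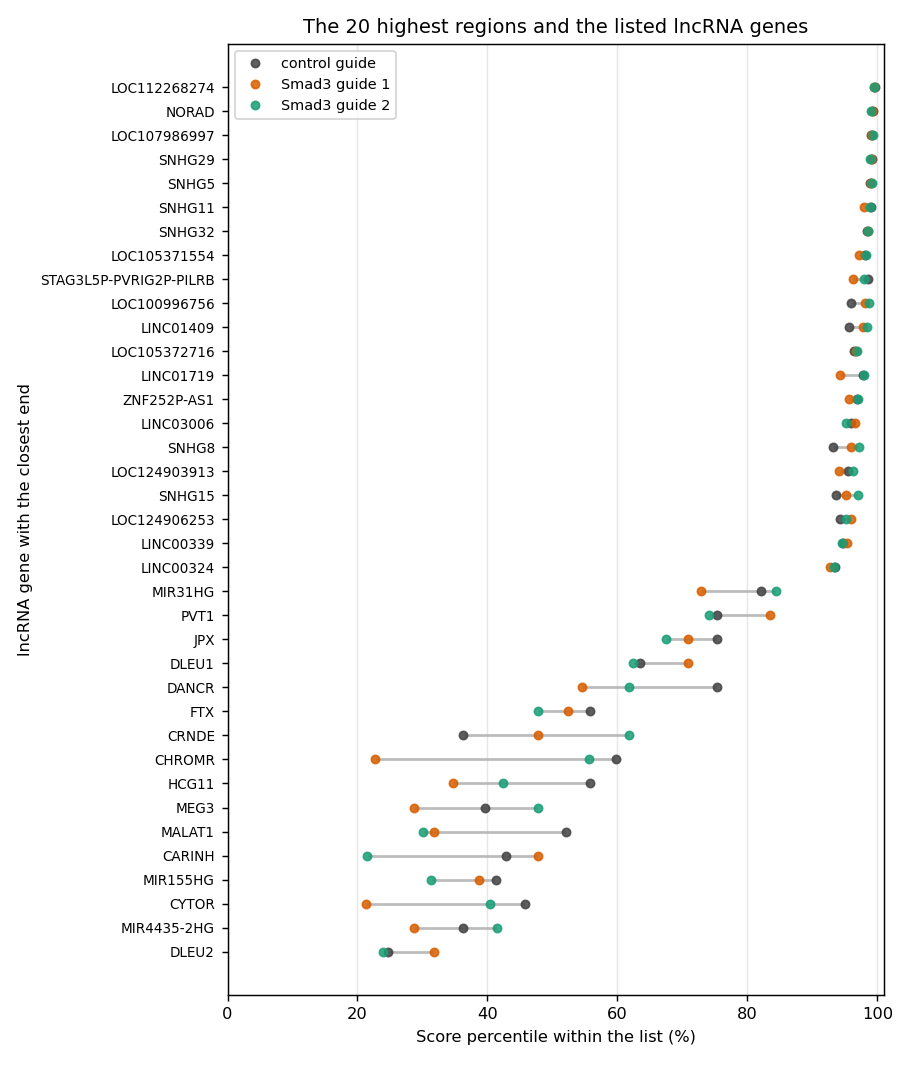
Score percentile within the list (%) in the control, guide 1 and guide 2 libraries for the 20 highest regions and for regions at genes in the lists of known, interferon or NF-kB linked and TGF-beta linked lncRNAs, 1 row per region. The 20 highest differ by a few points between libraries. They were chosen by the mean of these percentiles, so a small spread near the top follows from the choice. Lower down some rows, such as CHROMR, CARINH and CYTOR, spread over 20 points or more, and others, such as JPX and FTX, spread less.

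Of 49 well-known lncRNA genes 13 (26.5%) had a region of the set, beside 2.44% of all lncRNA genes and 3.89% of those without a LOC identifier. The list was chosen with earlier results of these data known. JPX and FTX, which lie in the X-inactivation centre, stood at 75.3, 70.9 and 67.4 and at 55.8, 52.5 and 47.7 in control, guide 1 and guide 2. PVT1, downstream of MYC, was at 75.3, 83.5 and 74.2. DANCR, which hosts a snoRNA and whose region overlapped the microRNA gene MIR4449, was at 75.3, 54.6 and 61.8. Apart from NORAD and LINC00324, none of these regions was in the top 10% of any list. MALAT1, an abundant nuclear lncRNA found in nuclear speckles, was at 52.2, 31.8 and 30.1 (chr11:65497125-65498052). MEG3, an imprinted gene expressed from the maternal allele, was at 39.6, 28.7 and 47.7 (chr14:100825957-100826343). DLEU1 was at 63.5, 70.9 and 62.4, and its neighbour DLEU2 was at 24.6, 31.8 and 24.0. CRNDE was at 36.3, 47.8 and 61.8, and HCG11 was at 55.8, 34.6 and 42.4. Thus the well-known genes covered most of the range of the set.

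Among lncRNA genes linked to interferon or NF-kB, 4 of 21 had a region, and all 4 stood in the middle or lower range. CHROMR, which takes part in the antiviral response, was at 59.7, 22.8 and 55.7 (chr2:178413413-178414179). CARINH, annotated with the synonym IRF1-AS1, was at 42.8, 47.8 and 21.5 (chr5:132410878-132411162). MIR155HG, the host of the immune microRNA miR-155, was at 41.3, 38.7 and 31.2 (chr21:25561943-25562395). MIR4435-2HG was at 36.3, 28.7 and 41.4. For each of the 4 at least 2 of the 3 percentiles were below the median of the list that all shared regions had. The TGF-beta linked list, chosen in the same way, gave 4 of 16 genes (25%), namely MIR31HG, MEG3, MALAT1 and CYTOR. MIR31HG, host of miR-31, was the highest of them at 82.1, 72.9 and 84.4 (chr9:21559504-21559840). CYTOR, a cytoskeleton-linked lncRNA and a near relative of MIR4435-2HG, was at 45.8, 21.3 and 40.4 (chr2:87455130-87455728). Aligned end to end, the closest pair of promoter windows of CYTOR and MIR4435-2HG had an edit distance of 118 over 300 bases. Added and lost bases count in it, so a shift between the annotated starts raises it. How far the 2 promoter sequences differ therefore cannot be read from it.

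MicroRNA hosts stood lower than snoRNA hosts. The 13 regions at genes named as microRNA hosts had median percentiles of 45.8, 34.6 and 49.4, and MIR31HG was the highest of them. Hairpins were matched by position, inside the span of the host gene. The microRNA annotation used here gave them for 11 of the 13 regions, not for MIR155HG and MIR1302-2HG. None overlapped the region of its host. At MIR17HG, the host of the miR-17-92 cluster, the region was 2 bp from the start, and the 6 hairpins were 2920 to 3629 bp away. At MIR222HG the main region was 8 bp from the start, and the hairpins of miR-221 and miR-222 were 23135 to 23993 bp away. MIR17HG stood at 45.8, 37.4 and 54.9, and the main region of MIR222HG at 52.2, 41.4 and 45.7. The single hairpin of MIR31HG was 47486 bp from its region.

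The closest protein-coding gene was often far. The median distance from the regions to the closest protein-coding gene end was 30877 bp, with quartiles of 9134 and 96355 bp. For 72 regions it was over 1 and up to 5 kb, for 219 up to 50 kb and for 182 more than 50 kb. The 2995 shared regions away from both kinds of end had a median of 62070 bp. The regions at EIF2B5-DT, 1067 bp from EIF2B5, and at CASC11, 1067 bp from MYC, came closest to the limit. A region at SNHG7 was left out at 993 bp from a protein-coding end. Within 50 kb, 260 protein-coding genes were the closest neighbour of a region, and 125 of them (48.1%, 42.1 to 54.1) had a shared region within 1 kb of an end of their own. The share was 42.0% over all 19817 protein-coding genes and 46.0% for neighbours of the shared regions away from both kinds of end. The second lies inside that interval and the first just below it.

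Few of the neighbours came from the interferon or TGF-beta gene lists. Both shares were above that of all protein-coding genes, but they rest on 3 and 2 genes, so no excess is read from them. Of 73 interferon response genes 3 (4.11%) were the closest neighbour within 50 kb, beside 1.31% of all protein-coding genes. The region at LINC02574 lay 5861 bp from IFI6, an interferon-induced gene, and stood at 77.1, 36.0 and 69.8 in control, guide 1 and guide 2. The region at LOC100294145 lay 34851 bp from PSMB9, a subunit of the immunoproteasome, and stood at 59.7, 51.4 and 73.6. In both the lowest value was in guide 1. None of 40 NF-kB targets and none of 16 epithelial-mesenchymal transition factors was such a neighbour. At a share of 1.31%, lists this short can hold none, so no lack can be read from this. Of 51 TGF-beta and SMAD targets 2 (3.92%) were such neighbours. TGFBI was 8373 bp from the region at LOC105379189 (52.2, 41.4 and 62.4) and ID4 was 32429 bp from that at LNC-LBCS (34.7, 45.4 and 37.0). AMOTL2, 1 of 19 YAP targets (5.26%), had 2 regions at LOC105374118, at 26939 and 27494 bp. They stood at 53.4, 14.1 and 45.7 and at 15.9, 30.3 and 4.21.

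The AP-1 and immediate early list had the most neighbours, 6 of 39 genes (15.4%). Distances are from the midpoint of the region at the lncRNA gene named, not from that gene itself. JUN, a subunit of AP-1, had LOC101926907 at 32369 bp, with percentiles of 73.3, 61.5 and 66.7. The region at CASC11 lay 1067 bp from MYC and stood at 72.0, 54.6 and 61.1. SGK1, a kinase, had LOC105378009 at 30592 bp, at 47.2, 37.4 and 55.7. The transcription factor CEBPB had LINC01273 at 18014 bp, at 29.9, 18.2 and 42.4. FOSL2, another AP-1 subunit, had LOC102723530 at 28693 bp, at 12.4, 15.5 and 18.9. JUND had LOC124904653 at 10644 bp, at 10.8, 1.69 and 1.23, which was among the 4 lowest regions of the set. The regions next to AP-1 genes thus ran from above the median of the set to its bottom, and the other 3 lowest were at LOC105371031, LINC02205 and LOC105377622.

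Promoter windows were found for 322 of the 437 genes, and in 224 of them the region overlapped the window, by a median of 294.5 bp. CpG islands are stretches of promoter DNA that keep their CpG dinucleotides, measured by the ratio of CpG seen to CpG expected from the C and G content. The ratio was at least 0.6 in 69.2% (62.9 to 74.9) of the 224 windows. It was so in 26.1% of all 12829 lncRNA windows and in 93.9% of 5105 protein-coding windows overlapped by a shared region at a protein-coding end. The median GC content was 61.7%, 50.0% and 65.3% in the same order. The set therefore lay between lncRNA promoters in general and marked protein-coding promoters. Regions on the 155 windows at or above 0.6 had median percentiles of 71.3, 65.9 and 68.6 in control, guide 1 and guide 2, and those on the 69 windows below it 41.3, 37.4 and 52.2.

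The interferon response motif was not more common in these promoters. This motif, searched on both strands like every motif here, was in 7 of 224 windows (3.12%, 1.52 to 6.31), in 4.27% of all lncRNA windows, in 3.58% of all 34961 windows and in 2.76% of the overlapped protein-coding windows. All 3 shares lay inside the interval. The 7 genes were LOC101929408, MIR222HG, HCG11, CARINH, MIR155HG, LOC124904204 and LOC105373334. Their median percentiles were 42.8, 38.7 and 31.2, and LOC101929408 was the highest at 89.5, 65.9 and 82.2. A match lay inside the merged region at 4 of the 7 and inside the highest peak of all 3 libraries at 3. No match in a window says only that these letters are not there, and the rest of each region was not searched.

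AP-1 motifs were more common in these promoters than in either comparison group, mostly where CpG was low. TGANTCA was in 37 of 224 windows (16.5%, 12.2 to 21.9), in 10.3% of all lncRNA windows, in 7.68% of all windows and in 3.31% of the overlapped protein-coding windows. Among the 69 windows with a CpG ratio below 0.6 it was in 27 (39.1%, 28.5 to 50.9), beside 12.9% of 9483 lncRNA windows and 8.39% of 310 overlapped protein-coding windows of that kind. Among the 155 windows at or above 0.6 it was in 10 (6.45%, 3.54 to 11.5), beside 2.99% of 3346 lncRNA windows. The match lay inside the merged region at 34 of the 37 genes, and inside the highest peak of every library at 27. The 37 had median percentiles of 41.3, 41.4 and 55.7 in control, guide 1 and guide 2, below or near those of the whole set. Regions on all 69 windows with a CpG ratio below 0.6, which held 27 of the 37, had 41.3, 37.4 and 52.2.

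CRE motifs were rare, and most of the regions that held one ranked high. TGACGTCA, which is 1 base longer than the AP-1 motif and cannot share bases with it, was in 8 windows (3.57%, 1.82 to 6.89). It was in 1.15% of all lncRNA windows, 1.85% of all windows and 4.31% of the overlapped protein-coding windows. The match was inside the highest peak of every library at all 8 genes. These genes had median percentiles of 89.9, 92.4 and 92.7, beside 71.3, 65.9 and 68.6 for all 155 windows with that CpG ratio. Besides STAG3L5P-PVRIG2P-PILRB, LINC01409 and LINC03006 they included LINC03011 at 91.4, 95.1 and 96.0, LOC101930071 at 88.3, 89.8 and 90.2 and LINC02606 at 84.4, 86.3 and 82.6. LNC-LBCS and MEG3 were the 2 that stood below the median of the set in control. LINC03006 and LINC03011, both on chromosome 7, share sequence. Aligned end to end, their windows were 70.3% identical, while the other 27 pairs of CRE windows were 42.7% to 50% identical.

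The other motifs were set beside the same groups of windows. ETS (CCGGAAG) was in 41 windows (18.3%, 13.8 to 23.9), beside 5.85% of all lncRNA windows and 10.3% of all windows. SP/KLF (GGGGCGGGG) was in 42 (18.8%, 14.2 to 24.4), beside 7.23% and 15.7%. NRF1 (GCGCA followed by TGCGC) was in 7 (3.12%), beside 0.787% and 1.24%, and CACGTG was in 18 (8.04%, 5.14 to 12.3), beside 5.41% and 7.27%, both inside its interval. In the overlapped protein-coding windows these 4 were in 26.5%, 28.0%, 3.62% and 11.2%. CCAAT was in 87 (38.8%), beside 34.4% and 34.6%, and TATAAA in 20 (8.93%), beside 15.1% and 11.5%. The short SMAD motif CAGACA was in 28 (12.5%, 8.79 to 17.5), beside 19.7% and 16.9%, and the palindrome GTCTAGAC in 1, that of LOC124906269. The YY1 motif (AAGATGG followed by CGGC) was in 1, that of JPX, and in 0.852% of all windows. The NF-kB pattern (GGG, any 5 bases, CC) is loose and can share bases with GGGGCGGGG. It was in 68.3%, beside 45.2% and 58.7%. Among windows with a CpG ratio of at least 0.6, ETS was in 23.2% (17.3 to 30.5) of 155. It was in 15.8% of 3346 lncRNA windows and 26.9% of 4795 overlapped protein-coding windows of that kind.

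Ranks were compared between libraries over the 13459 shared regions, so that list length did not enter. Both guides are set against the same control library, so their differences from it are not independent. In guide 1, 100 of the 473 regions (21.1%, 17.7 to 25.0) ranked at least 10 percentage points lower than in control, beside 21.8% of all shared regions, and 116 (24.5%, 20.9 to 28.6) ranked higher, beside 22.0%. In guide 2, 93 (19.7%, 16.3 to 23.5) ranked lower, beside 22.9%, and 112 (23.7%, 20.1 to 27.7) higher, beside 22.1%. All 4 shares were near those of all shared regions, so the set as a whole did not stand apart between the libraries. With percentiles in the full lists, whose lengths differ, 122 regions were lower in guide 1, beside 25.5% of all shared regions, and 95 higher, beside 17.8%. In guide 2 the same measure gave 65 lower, beside 14.9%, and 146 higher, beside 28.9%. The balance of higher and lower thus turned in guide 1 with the choice of measure, and moved for all shared regions too. Between the guides 90 (interval 15.7% to 22.8%) ranked lower in guide 2 than in guide 1, beside 19.3%, and 95 (20.1%) higher, beside 18.8%. The libraries with the 2 guides thus also changed places at many regions. The median absolute difference from control was 8.75 points in guide 1 and 8.97 in guide 2, beside 8.31 and 8.71 for all shared regions.

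**Figure D4:**
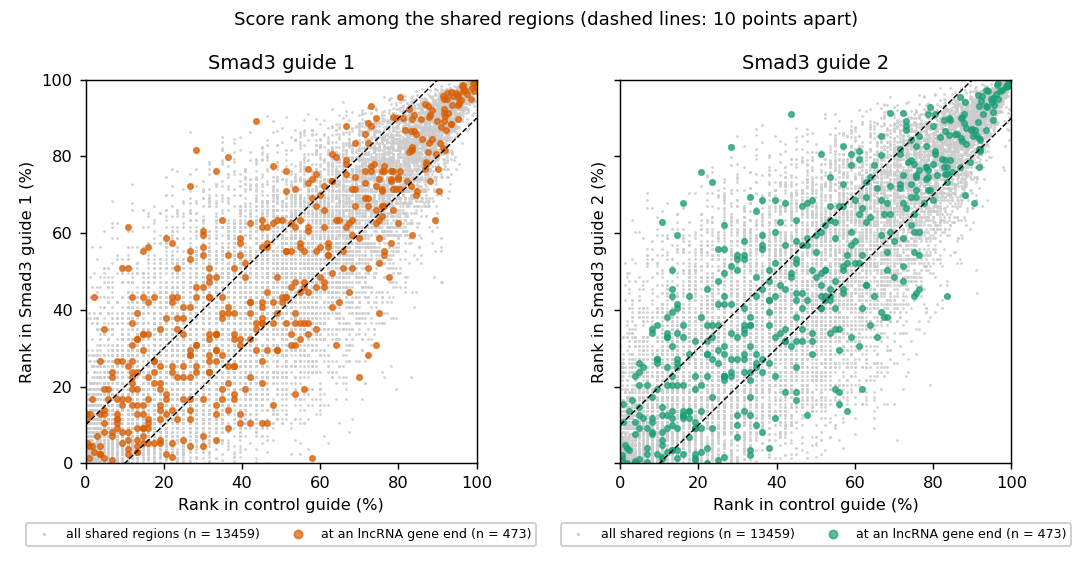
Rank (%) among the 13459 shared regions in guide 1 (left) and guide 2 (right) against the rank in control, all shared regions in grey and the 473 regions in colour; dashed lines are 10 points apart from equality. The coloured points spread on both sides of the dashed lines like the grey ones, and tightly only at the top.

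Single regions with the largest rank differences from control were chosen by that difference and have no replicate. Their ranks among the 13459 shared regions are given in the order control, guide 1 and guide 2. LINC00921 (chr16:3263515-3264068), 7158 bp from the innate immune gene MEFV, fell furthest in both guides, with ranks of 58.0, 1.30 and 13.7. A second region of LINC00921, chr16:3264155-3264952, ranked at 59.0, 67.0 and 80.7. The 2 regions of this gene thus lay on different sides of their control values. The other 3 largest falls in guide 1 were at LINC02574 next to IFI6 (74.3, 30.9 and 62.0), at LINC00240 (72.3, 28.1 and 47.6) and at MIR1302-2HG (69.9, 22.4 and 48.6). A second region of LINC00240 was lowest in control, at 12.0, 36.5 and 34.1. The promoter window of MIR1302-2HG is identical to that of LOC105376912 on another chromosome, which ranked at 33.2, 29.6 and 21.6. In guide 2 the largest falls besides LINC00921 were at CHASERR, CECR7 and LOC124904991. CHASERR, which lies upstream of the chromatin remodeller gene CHD2 and is known to hold it down, ranked at 83.5, 59.6 and 43.6 in the region 44 bp from its start, and at 88.5, 92.1 and 87.4 in a second region 561 bp from it. CECR7 ranked at 61.9, 54.2 and 19.5. LOC124904991, whose promoter has identical copies, ranked at 55.9, 36.5 and 15.5, with a second region at 91.7 in control, 93.2 in guide 2 and higher still in guide 1.

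The largest rises were at 6 regions, each of a different gene. LOC105375170 (chr7:16989890-16990405) ranked at 28.3, 81.6 and 82.4 (control, guide 1, guide 2), and LOC105374170 (chr3:154886254-154886827) at 10.7, 61.6 and 62.8. Both were among the 4 largest rises in each guide. The other large rises in guide 1 were at LINC01151, at 43.6, 89.2 and 91.2, and at LINC02957, at 26.6, 72.3 and 56.0. Those in guide 2 were at LOC105374226, at 20.7, 58.6 and 76.1, and at LOC107986573, at 16.0, 56.5 and 67.8. All 6 ranked higher in both guide libraries than in control, which both share. Each group has a single library, so the spread between cultures cannot be given for any of these.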

How the data were processed

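Anti-IRF3 ChIP-seq was measured in 3 libraries (control guide, Smad3 guide 1, Smad3 guide 2), 1 per group. The authors deposited 1 peak list per library, with positions in build hg38 and a score per peak whose scale is not stated. Bowtie2 2.2.2.6 and MACS2 2.1.0 appear per the submitters' processing notes, with no settings. Whether an input library was used is not stated in the labels or lists. Read depth is unknown.

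Peaks were merged where they overlapped or touched by 1 bp or more, with python 3.11.15 and pandas 2.3.3, and coordinates are 1-based. Genes came from RefSeq (GRCh38.p14, the coordinates of hg38), 1 span per gene; 679 entries on alternate, patch or unlocalised scaffolds, which the gene table lists under their chromosome, were left out. Strand and sequence came from RefSeq promoter windows. The merging and the member rule were tested on simulated data. With 1 library per group no test was run; shares carry Wilson 95% intervals.

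The regions, gene lists and motifs were chosen with earlier results of these data known. Named were the genes of the 20 highest and 4 lowest regions by mean percentile, those in the known, interferon or NF-kB and TGF-beta lncRNA lists, the 4 largest rank falls and rises per guide, and up to 5 regions per neighbour list, preferring genes without a LOC identifier. Genes named for a motif, a small RNA gene, a second region or a name class were chosen after their values were seen. Alternatives were other distance, width and merging limits, stricter or equal-length lists, 1 library left out, genes without LOC identifiers, mean scores, other rankings and a 20-point difference. The region next to 1 interferon response gene is not reported here.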

Additional observations from a re-analysis of the deposited data

How the results depend on the processing

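Of 55 alternatives over 14 results, 44 stayed within 1.5 times the main count or within the counting interval of the main median or share. The number of regions was 473, and 368 to 615 under other limits of distance, width, merging, list length or with 1 library left out; it was 199 with peaks at or above the median score only and 250 with genes without a LOC identifier. Keeping the scaffold entries of the gene table, an alternative added after seeing the data, gave 471. The median guide 2 percentile was 54.6 with lists of equal length, in place of 57.1. With a difference of 20 points, 42 and 36 regions ranked lower and higher in guide 1 than in control and 41 and 52 in guide 2, in place of 100, 116, 93 and 112. Without LOC genes 161 regions lay at a gene start, in place of 274, which follows from the smaller set. The median distance to a protein-coding end was 37783 bp with a limit of 3 kb and 23974.5 bp without LOC genes, in place of 30877 bp. ETS was in 14.0% of the 322 closest windows and in 18.3% of the overlapped ones. No paired analysis was possible because each group has 1 library. Read depth and the scale of the score are unknown, which limits every comparison between libraries to ranks.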

Other observations

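Sequence copies were counted by comparing promoter windows end to end over their 300 bases, so copies with shifted annotated starts can be missed. Of the 322 lncRNA genes with a window, 15 (4.66%) had another window in the table at 90% identity or more. None of the 16 genes with a window among the 20 highest regions did. Copies were not counted for other lncRNA genes, so whether 4.66% is a high or low share is unknown. With 1 region per gene, the one that overlapped its window most, genes with a copy had median percentiles of 80.2, 71.5 and 78.3. These are for control, guide 1 and guide 2, beside 52.2, 47.8 and 57.1 for the others. GRAPL-AS1 and LOC388436 on chromosome 17 had identical windows, and so had 4 genes on chromosome 21, LOC124904989, LOC124904990, LOC124904991 and LOC124904992. Windows 143 to 150 Mb of chromosome 1, 38 to 69 Mb of chromosome 9 and 5 to 11 Mb of chromosome 21, chosen after their values were seen, held 8, 10 and 7 regions of the set. These were 12.5%, 27.0% and 25.9% of the shared regions there, beside 3.51% over all, and the window on chromosome 1 held 3 of the 20 highest regions. How reads were placed among such copies is not stated in the labels or lists, and its part in these percentiles was not tested.

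Pseudogene overlap was counted by gene span. Transcribed pseudogenes overlapped 26 of the 473 regions (5.50%, 3.78 to 7.93), beside 0.743% of regions at protein-coding ends and 3.47% of regions outside protein-coding genes and away from lncRNA ends. Other pseudogenes overlapped 5 regions (1.06%, 0.452 to 2.45), beside 1.14% of the latter.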
